A study of Mus musculus with 5 samples.

Results

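The genes described here encode glutamate receptors, GABA-A receptors and synaptic adhesion proteins, and the measurement is where a GFP-tagged histone variant, macroH2A1.2, was found along them in cultured fat cells. They were taken by symbol from the GENCODE M21 annotation of mm10: autosomal protein-coding genes named Gria, Grik, Grid, Grm, Nrxn, Nlgn, Lrrtm, Cntn or Cntnap with digits alone after the stem, or beginning with Grin1, Grin2, Grin3 or Gabr. This gave 60 genes of the 20807 autosomal protein-coding genes. Each gene was studied as a window, its body plus 10 kb on each side.

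The 3T3-L1 line consists of mouse fibroblasts that turn into adipocytes in culture when induced. All cells carried macroH2A1.2 fused to GFP, delivered by a lentivirus, and the chromatin was cut with micrococcal nuclease and precipitated with an anti-GFP antibody (ab290). Pre-adipocytes (2 replicates) were taken before differentiation, and mature adipocytes (2 replicates) after 60 h of induction with insulin (10 µg/ml), dexamethasone (0.25 µM) and IBMX (500 µM) and further culture with insulin but neither of the other agents. A library made without antibody served as the background for all 4 samples, so their control reads are shared. The signal is that of the introduced fusion protein and not of the cell's own histone, the methods speak of stable clones without giving their number, and no marker in these region files can check the cell type. Conditions were read from the sample titles, although another label of the mature adipocytes names the undifferentiated state in both replicates. The same label of the background library names an anti-GFP precipitation, against its title and its antibody entry of none, and every region call and fold enrichment rests on that library.

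Fast excitatory transmission in the brain runs through ionotropic glutamate receptors (the AMPA, kainate, NMDA and delta families), and metabotropic receptors carry slower glutamate signals through G proteins. GABA-A receptors are the chloride channels of fast inhibition, and many of their subunit genes lie together in clusters. Neurexins on the presynaptic side bind neuroligins, LRRTM proteins and others across the synaptic cleft, while contactins and contactin-associated proteins join axons to glia and to other neurons. Many of these genes are very long and are best known for expression in neurons. MacroH2A variants replace H2A in broad chromatin domains and are often found over genes that are silent in the cell type studied.

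The deposited files list broad regions in which ChIP reads exceeded scaled control reads at a false discovery rate (FDR) of up to 0.001. Region numbers ranged from 36468 to 61196 per sample. The size of each ChIP library relative to the control library was 1.20 and 0.549 in pre-adipocytes, and 1.23 and 1.21 in mature adipocytes. Replicate 2 of pre-adipocytes was thus the shallowest sample, and it also had the lowest covered share over all genes. Where a condition has 2 values, replicate 1 comes first, and where 4 values follow each other, pre-adipocytes come before mature adipocytes. Covered share, the main measure here, is the percentage of the bases of a window that lie in called regions. A gene without a region is one where no enrichment passed the limit at this depth, which does not show that the histone was absent.

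Called regions were missing from most of these genes. Of the 60 genes, 35 had no region in any sample, 10 had at least 1 region in all 4 samples, and 15 had a region in 1 to 3 samples. Over all autosomal protein-coding genes, 46.3% had no region in any sample and 21.1% had one in all 4. Among the 10 genes were the AMPA receptor gene Gria1, the kainate receptor genes Grik1, Grik2 and Grik4, the obligatory NMDA receptor subunit gene Grin1, the metabotropic receptor gene Grm4, the rho-type GABA receptor gene Gabrr3, the neurexin gene Nrxn2, and Cntnap2, which encodes a protein that clusters potassium channels at axons. Before differentiation, replicates 1 and 2 had a region at 13 and 18 of the genes, and after it at 15 and 16.

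Regions in both pre-adipocyte replicates were found at 13 of the 60 genes, compared with 24.2% of all autosomal protein-coding genes. Regions in both mature adipocyte replicates were found at 11, compared with 34.4% of all genes. Long windows have more room for regions, and the median window was 217 kb here against 37.6 kb for all genes. With the other genes weighted to the same 5 classes of window length, 39.4% of them had a region in both pre-adipocyte replicates and 48.9% in both mature adipocyte replicates. The percentages of these genes were 21.7 and 18.3. No region in any sample was the case for 33.4% of the length-weighted other genes and for 58.3% of these genes. These shares are a description and were not tested.

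The same order held for bases. Regions covered 3.48% and 1.67% of the 23.6 Mb of member windows in pre-adipocytes, and 3.14% and 3.10% in mature adipocytes. In the length-weighted other genes the shares were 8.66%, 4.29%, 8.76% and 8.57% in the same order. Members were lower in 4 of 4 samples, with a mean difference of -4.73 percentage points (exact sign-flip permutation test over samples, two-sided, p = 0.125, which is the smallest p that 4 samples allow). The 4 samples share the control library and the gene lists, so they are not independent measurements of the genes.

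**Figure D1:**
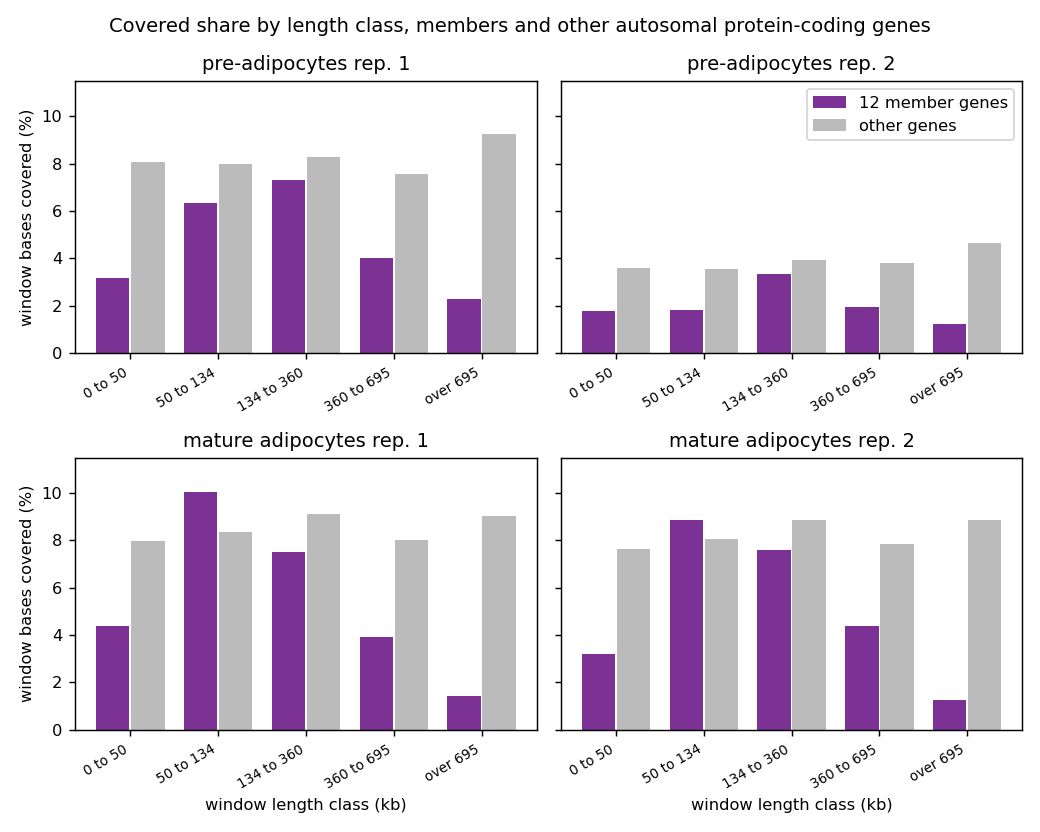
Percentage of window bases covered by called regions (y axis) in 5 classes of window length in kb (x axis), for the 12 member genes of each class (purple bars) and all other autosomal protein-coding genes of that class (grey bars), with 1 panel per sample. Members were lower than the other genes in 18 of the 20 pairs of bars. The exceptions were the class from 50.5 to 134 kb in both mature adipocyte samples.

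The gap was widest among the longest genes. For windows over 695 kb, members had 2.29%, 1.23%, 1.41% and 1.25% of their bases in regions (pre-adipocytes, then mature adipocytes), where the other genes had 9.24%, 4.64%, 9.05% and 8.88%. Of the 15 member windows over 500 kb, 10 had no region in any sample, among them those of Nlgn1, Nrxn3, Grm5, Grm7, Grid1, Cntn4 and Cntn5. Among the other genes, no region in any sample was found for 26.9% of windows from 360 to 695 kb and for 26.5% of those over 695 kb. In the class from 50.5 to 134 kb, which holds Grm4 and Gabrr3, members had 10.0% and 8.87% in mature adipocytes against 8.36% and 8.04% in the other genes.

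Coverage was concentrated in few genes. The 5 members of highest mean covered share (among them Grm4, Gria1, Nrxn2 and Grik2) held 83.7% and 79.8% of all covered member bases in pre-adipocytes, and 89.2% and 88.1% in mature adipocytes. The median covered share over the 60 genes was 0 in every sample.

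**Figure D2:**
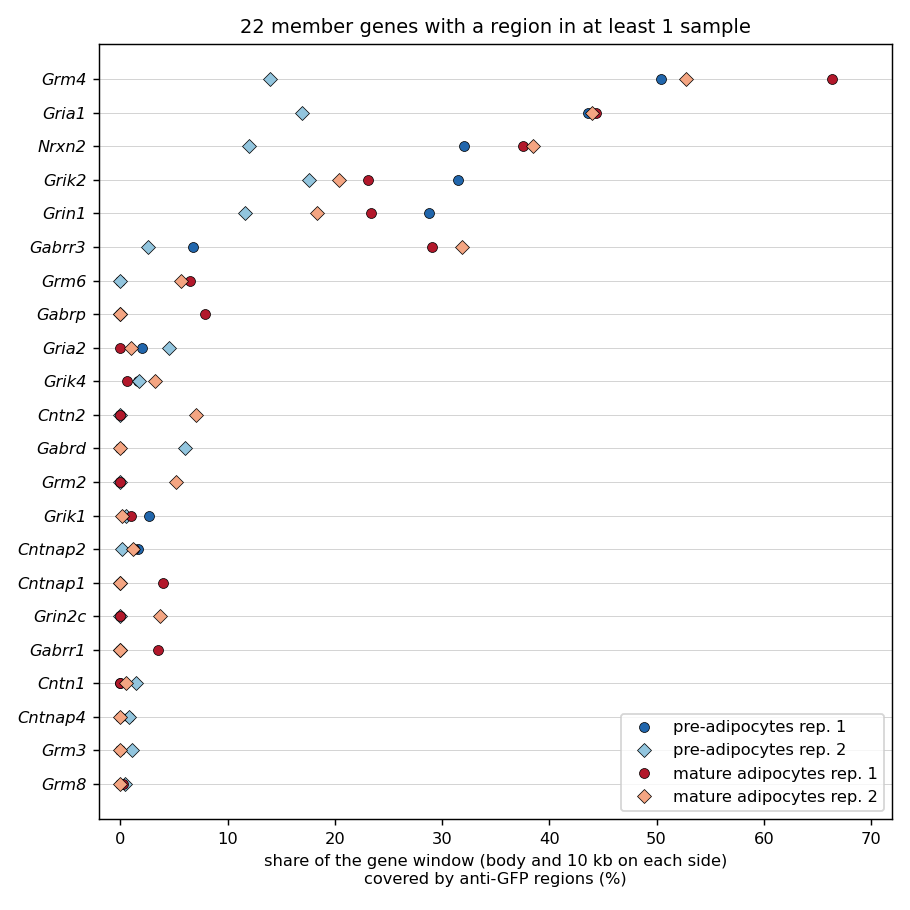
Covered share of the gene window in percent (x axis) for 22 of the 25 members with a region in at least 1 sample (y axis, ordered by mean), with 1 point per sample (blue for pre-adipocytes, red for mature adipocytes, circles for replicate 1 and diamonds for replicate 2). In 6 of the genes drawn, from Grm4 down to Gabrr3, the mean over the 4 samples was 17.6% or more, and in the other 16 it was 3.04% or less.

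Among the metabotropic glutamate receptor genes, Grm4 had the highest mean covered share of the whole group. Grm4 (chr17:27422387-27521403, minus strand), which encodes an inhibitory presynaptic receptor, had 50.4% and 13.9% of its window in regions in pre-adipocytes and 66.4% and 52.8% in mature adipocytes. Both mature values were above both pre-adipocyte values. The same held relative to the covered share of all other genes in each sample (6.18, 3.70, 7.87 and 6.47 times). Replicate 2 of mature adipocytes was only slightly above replicate 1 of pre-adipocytes (52.8% against 50.4%, and 6.47 against 6.18 times). The low pre-adipocyte value was that of the shallow replicate 2. The ChIP reads in these regions numbered 2934, 312, 3394 and 4402, and the fold enrichment over the scaled control was 2.09, 2.19, 2.31 and 2.40, in the same order. These values are for whole regions that touch the window, including their parts outside it. The regions were 84000, 16600, 87000 and 104200 bp long in total, with 60017, 16600, 79017 and 62817 bp inside the window. In replicate 2 of mature adipocytes, 1641 reads came from a region of 38000 bp that lay mostly outside the window. Grm4 was also the only member whose annotated transcription start lay in a region in more than 1 sample, namely in both mature samples and in pre-adipocyte replicate 1.

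Grm6, the receptor of retinal ON bipolar cells, had no region in pre-adipocytes and 1 region in each mature replicate. It was the only member with regions in both mature adipocyte replicates and in neither pre-adipocyte replicate, a pattern seen in 4.86% of all genes, and no member had it with a flank of 5 kb or with none. Its 2 regions did not overlap, covered 6.52% and 5.63% of the window, and both lay upstream of the gene, at 10.5 to 7.68 kb and at 5.08 to 3.08 kb before the start, in a window that also holds Zfp454 and Zfp879. Grm2 had 1 region in replicate 2 of mature adipocytes, in the flank outside the gene body, and its window also holds Tex264. Grm3 had 1 in replicate 2 of pre-adipocytes. Grm8 had 2 and 1 regions in replicate 2 of pre-adipocytes and replicate 1 of mature adipocytes. Grm5 and Grm7 had none.

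The AMPA receptor gene Gria1 (chr11:57011387-57330244, plus strand) carried regions along its whole length. Its share was 43.6% and 16.9% in pre-adipocytes and 44.3% and 44.0% in mature adipocytes. Apart from the shallow replicate 2 of pre-adipocytes, the 3 samples lay within 1 percentage point of each other, and relative to the other genes of each sample the values overlapped between conditions (5.35, 4.48, 5.25 and 5.39 times). Its surroundings were the most covered of any member, with a mean of 29.2% over the 500 kb on each side. Gria2, the subunit that sets the calcium permeability of the channel, had 1 and 2 regions in pre-adipocytes and 0 and 1 in mature adipocytes, with covered shares of 1.98%, 4.53%, 0 and 0.990% and no base shared between any samples. Gria4 had no region.

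Among kainate receptor genes, Grik2 (chr10:49094833-49788766, minus strand) had 31.5% and 17.6% of its window covered in pre-adipocytes and 23.1% and 20.4% in mature adipocytes. The conditions overlapped on this scale. Relative to the other genes of each sample, Grik2 was lower in both mature samples (2.74 and 2.50 times) than in both pre-adipocyte samples (3.87 and 4.67 times). No other protein-coding gene lay within 500 kb of its window, and 6.20% of that surrounding sequence was covered on average. Grik1 and Grik4 had 1 to 5 regions per sample and covered shares of 0.145% to 3.27%. In Grik1 the highest fold enrichment of any member region, 8.71, stood on 42 ChIP reads against 4 control reads in replicate 2 of mature adipocytes. Grik3 and Grik5 had no region.

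Of 7 NMDA receptor genes, 5 had no region: Grin2a, Grin2b, Grin2d, Grin3a and Grin3b. Grin1 (chr2:25291181-25319187, minus strand) had 28.7% and 11.7% of its window covered in pre-adipocytes and 23.3% and 18.3% in mature adipocytes, with 2 to 5 regions per sample. The conditions overlapped. Relative to the other genes of each sample, the mature values (2.76 and 2.25 times) were below the pre-adipocyte values (3.53 and 3.09 times). Grin1 had the highest fold enrichment of the 6 most covered members in both pre-adipocyte samples, at 2.43 and 2.92, on 464 and 104 ChIP reads. Its 48.0 kb window also holds Anapc2, Lrrc26 and Tmem210. Grin2c had 1 region, in replicate 2 of mature adipocytes.

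Promoter sequences of 250 bases before to 50 bases after a start were matched for 41 of the 60 genes from RefSeq (GRCm38.p6, the assembly that mm10 names). A region touched the promoter of 1 of them, Grin1, where all 300 bases lay in a region in replicate 1 of pre-adipocytes and 37 bases in replicate 1 of mature adipocytes. Of all promoters, 6.51% and 2.39% lay in a region in pre-adipocytes and 6.18% and 5.92% in mature adipocytes. Grm4, whose annotated start was covered in 3 samples, was not among the matched genes. The Grin1 promoter is shown with the promoters of Grik2 and Gabrr3, whose bodies held regions in all 4 samples while their promoters held none. Grin1 lies at chr2:25319138-25319437 (minus strand), Grik2 at chr10:49788705-49789004 (minus strand) and Gabrr3 at chr16:59407132-59407431 (plus strand). Each is written 5′ to 3′ in the direction of transcription, with the dinucleotide CG, the site of DNA methylation in mammals, in capitals.
Grin1: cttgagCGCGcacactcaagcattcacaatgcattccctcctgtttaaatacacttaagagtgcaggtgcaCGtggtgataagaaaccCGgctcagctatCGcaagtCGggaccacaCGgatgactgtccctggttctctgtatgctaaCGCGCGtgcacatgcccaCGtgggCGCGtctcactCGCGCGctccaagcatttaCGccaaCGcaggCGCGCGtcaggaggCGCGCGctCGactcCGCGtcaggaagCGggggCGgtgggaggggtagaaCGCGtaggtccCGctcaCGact
Grik2: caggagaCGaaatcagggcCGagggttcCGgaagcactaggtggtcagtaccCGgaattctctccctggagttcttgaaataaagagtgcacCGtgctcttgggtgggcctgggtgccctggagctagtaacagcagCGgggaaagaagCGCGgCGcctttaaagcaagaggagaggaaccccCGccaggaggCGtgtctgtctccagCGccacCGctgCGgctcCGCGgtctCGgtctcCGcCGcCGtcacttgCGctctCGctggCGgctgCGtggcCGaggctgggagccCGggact
Gabrr3: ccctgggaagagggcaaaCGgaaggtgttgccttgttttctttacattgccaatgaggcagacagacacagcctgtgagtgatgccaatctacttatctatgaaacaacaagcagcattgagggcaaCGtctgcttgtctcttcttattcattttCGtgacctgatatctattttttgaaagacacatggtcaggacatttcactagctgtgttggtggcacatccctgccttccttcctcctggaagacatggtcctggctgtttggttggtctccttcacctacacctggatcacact
CG reads the same on both strands, and the letters were counted 33 times in the Grin1 window, 26 times in Grik2 and 3 times in Gabrr3. Of all 19174 autosomal promoters of this length, 95.8% held at least 1 CG, with a median of 14 per promoter. The median was 10 over the 56 promoters of the matched members. The covered Grin1 promoter and the uncovered Grik2 promoter thus both had more CG than the median promoter, and the uncovered Gabrr3 promoter had fewer.

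Cntnap4, a contactin-associated protein gene, had 1 region in each pre-adipocyte replicate, with no base shared between them, and 0 in mature adipocytes. Its covered share was 0.842% and 0.782% in pre-adipocytes, on 95 and 49 ChIP reads. The number of reads at these positions in mature adipocytes is not in the region files, so the size of the difference could not be measured. Regions in both pre-adipocyte replicates and in neither mature replicate were found at 2 members, and at 0.913% of all genes.

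**Figure D3:**
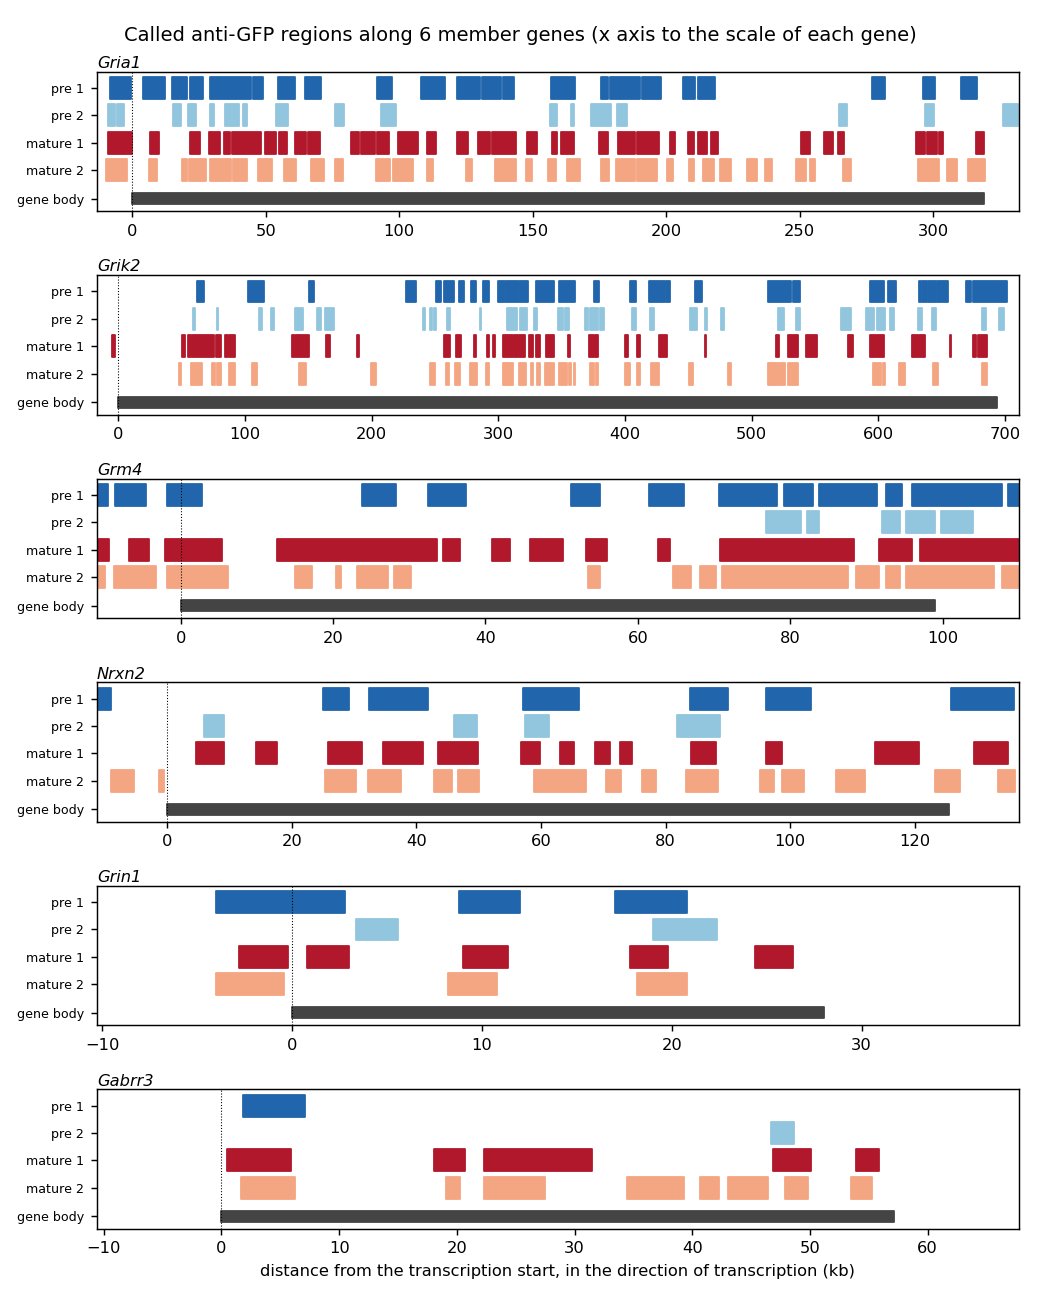
Called regions along Gria1, Grik2, Grm4, Nrxn2, Grin1 and Gabrr3, by distance from the transcription start in kb (x axis, drawn to the scale of each gene and cut at 10 kb beyond its ends), with 1 row of bars per sample and the gene body in dark grey. Gria1 and Grik2 carried 17 to 41 regions in each sample, Grin1 carried 2 to 5, and Gabrr3 went from 1 region in each pre-adipocyte replicate to 5 and 8 in mature adipocytes.

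The GABA-A receptor genes were the largest family, with 16 members, of which 12 had no region. The cluster of Gabrg1, Gabra2, Gabra4 and Gabrb1 on chromosome 5 was empty in all samples. Around it, the stretch without a region in any sample was 2.65 Mb long, at chr5:69526201-72175600. These 4 genes are neighbours and count as 1 place rather than 4 separate observations. Gabra5 and Gabrg3 on chromosome 7 and Gabra6 and Gabrb2 on chromosome 11 had no region either. Coverage of chromosome 7 as a whole was low, with a mean covered share of 0.783% in its other protein-coding genes, compared with 5.11% on chromosome 5 and 8.62% on chromosome 11.

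In contrast, Gabrr3 (chr16:59407332-59464504, plus strand) encodes a rho subunit, and the rho subunits form GABA channels known mainly from the retina. Its covered share was 6.74% and 2.59% in pre-adipocytes, and 29.0% and 31.9% in mature adipocytes. The samples of the conditions did not overlap, and relative to the other genes of each sample they did not either, at 0.826 and 0.687 times in pre-adipocytes and 3.44 and 3.91 times in mature adipocytes. The ChIP reads in the regions numbered 176 and 39 in pre-adipocytes and 833 and 926 in mature adipocytes, and the fold enrichment inside them, in regions called separately in each sample, was 1.57, 1.87, 1.82 and 1.82. In mature adipocytes 14.0 kb coincided, 62.5% of the bases of replicate 1 and 56.9% of those of replicate 2, whereas the pre-adipocyte regions had no base in common. The 500 kb on each side had only 0.475% of bases covered on average. Riox2 lies partly in the same window. Gabrp had 1 region, in mature adipocyte replicate 1 (7.89% of its window), Gabrr1 1 in the same sample, and Gabrd 1 in replicate 2 of pre-adipocytes. The regions of Gabrr1 and Gabrd lay in the flanks, outside the gene bodies.

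Among the adhesion genes, Nrxn2 (chr19:6418731-6544169, plus strand) stood alone. It had 32.1% and 12.0% of its window covered in pre-adipocytes and 37.5% and 38.5% in mature adipocytes, with no overlap between conditions, also relative to the other genes of each sample (3.93, 3.17, 4.45 and 4.72 times). The window also holds Rasgrp2 and Slc22a12. Nrxn3 had no region in any sample. Both autosomal neuroligin genes (Nlgn1 and Nlgn2) and all 4 LRRTM genes had no region in any sample, although 15.4% of the sequence around Nlgn2 was covered, the highest value around any member without a region. Contactin genes Cntn3, Cntn4, Cntn5 and Cntn6 had none, and Cntn1 and Cntn2 had 1 region in 2 samples and in 1 sample. The Cntn2 region lay in the flank outside the gene body, in a window that also holds Rbbp5 and Tmem81.

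Cntnap2 (chr6:45059357-47304213, plus strand) is the longest member, with a window of 2265 kb. Its 6, 1, 6 and 9 regions (pre-adipocytes, then mature adipocytes) covered 1.67%, 0.115%, 1.25% and 1.17%. In all samples but replicate 2 of pre-adipocytes, every region began 2131 kb or more downstream of the start, at the 3′ end of the gene, where the flanking sequence was also covered. The single region of replicate 2 of pre-adipocytes lay 3.24 to 5.84 kb after the start. Cntnap1 had 1 region in replicate 1 of mature adipocytes and Cntnap3 had none.

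Counted over all members, the covered share was higher in both mature samples than in both pre-adipocyte samples at 6 genes (among them Gabrr3, Gria1, Grm4, Grm6 and Nrxn2) and lower at 3 (among them Cntnap4 and Gria2). Over all autosomal protein-coding genes these patterns were seen in 14.6% and 3.51%, so 6 and 3 of 60 were near the background. After division by the covered share of the other genes of each sample, 4 members were higher (Gabrr3, Grm4, Grm6 and Nrxn2) and 6 lower (among them Cntnap4, Gria2, Grik1, Grik2 and Grin1), against 11.1% and 8.8% of all genes. Pooled over all member windows, the share was 2.58% ± 1.28 before differentiation (SD, n = 2) and 3.12% ± 0.0309 after it (SD, n = 2), a difference of 0.543 percentage points that was within the spread of the pre-adipocyte replicates (exact permutation test, two-sided, p = 1, where 0.333 is the smallest p that 2 samples against 2 allow). Without the shallow replicate 2 of pre-adipocytes the difference was -0.360 percentage points. As a ratio to the covered share of all other genes in the same sample, the direction turned: members had 0.435 ± 0.0118 times that share before differentiation (SD, n = 2) and 0.376 ± 0.00533 times after it (SD, n = 2). The conditions did not overlap on this scale (exact permutation test, two-sided, p = 0.333, the smallest p possible).

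ChIP reads summed over member regions were 1.63 and 2.03 times the scaled control reads in pre-adipocytes, and 1.82 and 1.89 times in mature adipocytes. Over all autosomal regions the values were 1.58, 1.92, 1.73 and 1.75. The mature minus pre-adipocyte difference at member regions was 0.0270. The shallowest sample had the highest value, and the part of depth in this was not tested. Regions were called separately in each sample, so these ratios describe what passed the limit and do not compare enrichment in the same sequence. Member regions had a median length of 5400, 2800, 3400 and 3400 bp and a median of 174, 52, 133 and 123 ChIP reads.

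ChIP reads per called kilobase were compared between conditions for the 4396 genes with a region in all 4 samples, which include 10 members. With edgeR's quasi-likelihood test, 0 of the 4396 genes passed an adjusted p of 0.05 (0% called), while 365 genes and 1 member had an unadjusted p below it, and DESeq2 also called 0 genes. The 3 members with the smallest p were Cntnap2, with a log2 fold change (mature over pre-adipocytes) of 0.23 ± 0.069 (SE, adjusted p = 0.519), Grm4 with 0.09 ± 0.055 (SE, adjusted p = 0.714), and Grik1 with 0.31 ± 0.229 (SE, adjusted p = 0.762). The other 7 members lay between -0.05 and 0.21. In Cntnap2 the only region of replicate 2 of pre-adipocytes, with 41 reads, lay near the start, while all regions of the other samples lay near the 3′ end. The Cntnap2 value thus sets different parts of the gene against each other. In Grik1, replicate 2 had 1 region in each condition, with 43 reads in pre-adipocytes and 42 in mature adipocytes (600 bp). The Grm4 reads include those of regions mostly outside its window. This test sees only reads inside regions called separately in each sample, where the calling limit itself bears on the density, and it is no measure of how much of a gene was covered. Gabrr3, whose covered share did not overlap between conditions, had a log2 fold change of -0.01. Grm6, Cntnap4 and the other genes without a region in some sample were outside the test.

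**Figure D4:**
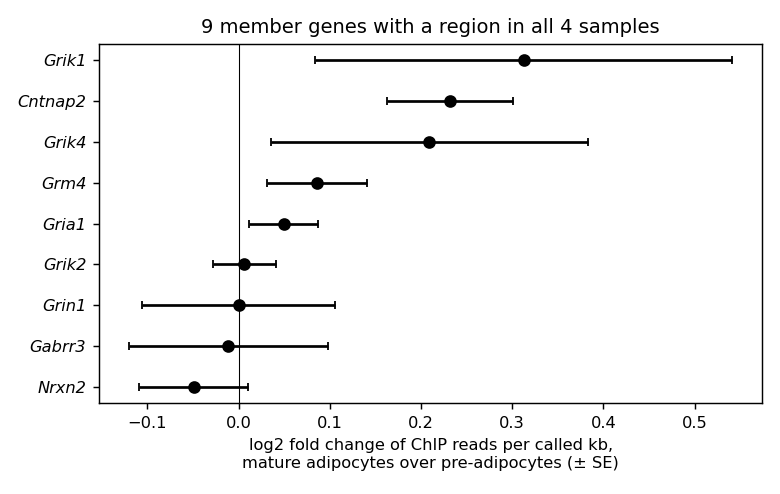
Log2 fold change of ChIP reads per called kilobase, mature adipocytes over pre-adipocytes (x axis), for 9 of the 10 members with a region in all 4 samples (y axis), with points for edgeR's estimate and bars for a standard error derived from its F statistic. Cntnap2, at 0.23, and Grik1, at 0.31, had the highest estimates, and no adjusted p was under 0.519. Each had a sample with a single region: 41 reads for Cntnap2 in replicate 2 of pre-adipocytes, and 42 for Grik1 in replicate 2 of mature adipocytes.

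Within the member windows, introns made up 92.9% of the bases and held 88.0%, 91.4%, 87.5% and 87.0% of the covered bases (pre-adipocytes, then mature adipocytes). Exons made up 2.03% and held 3.70%, 2.13%, 4.14% and 4.03%. The 10 kb flanks made up 5.08% and held 8.30%, 6.43%, 8.39% and 8.95%. Transcription starts were rarely reached: the annotated start of 2, 0, 1 and 1 members lay in a region, compared with 6.15%, 2.30%, 5.79% and 5.44% of the other genes. The starts were those of Grm4 and, in replicate 1 of pre-adipocytes, of Grin1, whose promoter is printed above.

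Members with regions tended to lie in covered surroundings. Over the 500 kb on each side of the window, the mean covered share had a median of 11.9% around the 10 members with a region in all 4 samples and of 0 around the 35 members with none, of which 18 had no region in their surroundings in any sample. The nearest region to a member without any was 517 kb from the gene in the median (from 11.1 kb at Grin3b to 3874 kb at Lrrtm1). Across the 60 genes, Spearman's rho between the covered share of the window and that of its surroundings was 0.68, and with window length it was -0.13. These are descriptions, since neighbouring members share surroundings and all values share the same 4 libraries. Gabrr3 went against the pattern, as did Nlgn2.

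**Figure D5:**
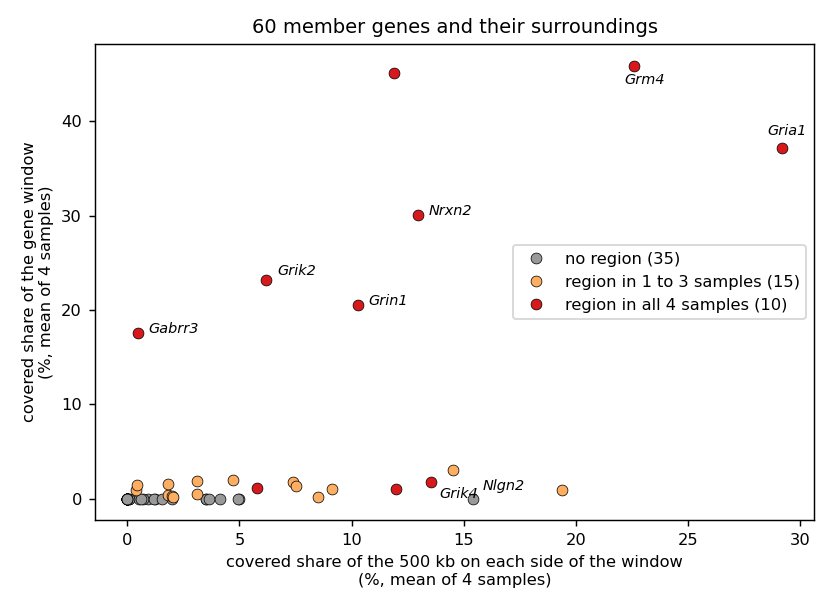
Mean covered share of the gene window in percent (y axis) against that of the 500 kb on each side of it (x axis), both over 4 samples, with 1 point for each of the 60 members, coloured by the number of samples with a region. The 35 members without a region lie along the bottom, at 15.4% or less on the x axis, and Gabrr3 reached 17.6% coverage in surroundings of 0.475%.

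A further 72 genes of the same synapses (scaffolds and auxiliary receptor subunits, other adhesion proteins and organizers, GABA-B receptors, GABA synthesis and transport, and vesicular glutamate transporters) were looked at beside the members. Of these, 23 had a region in both pre-adipocyte replicates, 35 in both mature adipocyte replicates, 20 in all 4 samples and 23 in none, where the percentages over all genes were 24.2, 34.4, 21.1 and 46.3. Those percentages take no account of window length. With the other genes weighted to the members' length classes they were 39.4, 48.9, 36.4 and 33.4. No weighting to the window lengths of the 72 genes was made, so the counts do not show more or fewer regions than in genes of like length. Pooled covered shares of the 72 genes were 9.85% and 4.35% in pre-adipocytes and 8.56% and 8.55% in mature adipocytes, beside 8.15%, 3.77%, 8.44% and 8.16% in all genes other than the members, also unweighted. Among the 25 scaffold and auxiliary genes the shares were 12.0%, 4.43%, 12.0% and 11.7%, and among the 36 adhesion and organizer genes 8.65%, 4.45%, 6.26% and 6.56%. The 3 genes with the highest mean shares were Cbln1 (73.6%, 23.1%, 78.5% and 84.3%), whose secreted product links neurexins to the delta receptors, Neto2 (65.9%, 2.61%, 84.0% and 73.5%), an auxiliary subunit of kainate receptors, and Dlgap2 (53.3%, 17.3%, 55.1% and 48.9%), a postsynaptic scaffold. This list was drawn up by hand, and its difference from the members was not tested.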

How the data were processed

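ChIP-Seq libraries of 2 pre-adipocyte and 2 mature adipocyte replicates were analysed, with 1 shared no-antibody library. Per the labels and the methods, the authors used Bowtie 1.1.2 on mm10 (uniquely placed single reads, at most 2 mismatches), Picard to drop duplicates, and SICER 1.1 on each sample by itself. The deposited tables give, per region, raw counts for the ChIP and the control library, the p-value and FDR of the authors' SICER run, and a fold enrichment, which is the ratio of these counts scaled by the authors to library size. The largest FDR was 0.001, where the methods state a looser limit. Control counts were equal in all 1000 pairs of regions with the same coordinates in different samples. Total library sizes are not used here; the ratio to the control library was recovered from the fold enrichment.

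A region was counted for a gene at an overlap of at least 1 bp with its window (GENCODE M21). Reads, fold enrichment and called length of a gene are sums over whole regions, also where they reach beyond the window, while covered share counts only bases inside it. Other genes were weighted to the members' 5 length classes. ChIP counts per gene were tested with edgeR 4.0.16 (quasi-likelihood, TMM, offset of called length, Benjamini-Hochberg over 4396 genes), with DESeq2 1.42.0 as an alternative, and the fit was tested on simulated data. The SE given with a log2 fold change is its absolute value over the square root of edgeR's F statistic. Python 3.11.15, numpy 2.4.6, pandas 2.3.3, matplotlib 3.10.9, R 4.3.3 and limma 3.58.1 were used. P-values of comparisons between conditions rest on the spread between replicates that the methods call biological duplicates. The sign-flip p-value, taken over the 4 samples of both conditions, does not measure that spread. It takes its smallest value whenever all 4 differences have the same sign. Members, lists and tests were chosen with earlier results of these data known. Full values per sample are given, by rule, for the 10 members of highest mean covered share, members with regions in both replicates of 1 condition alone, the 3 smallest p-values, members with the start covered in all 4 samples (none), and genes of the GABA-A clusters. Some of these are not reported here, and counts and pooled values include them. The genes of the second list are given as counts with the 3 most covered named. Values of other members are given as ranges or because a count was small, and these were chosen after the values were seen. Alternatives covered FDR, fold enrichment, flank, overlap, leaving out each sample, length classes, normalization, test, offset, count filter and replicate block.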

Additional observations from a re-analysis of the deposited data

How the results depend on the processing

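Of 99 values under other settings, 82 kept their direction and their side of the threshold, or stayed within 1.5 times of a count. Some of these could not change. Examples are the member count of a condition when a sample of the other was left out, and the edgeR counts under the wider name rule, which used the same fit. The lower covered share of members against length-weighted other genes was negative in all settings tried, from -7.14 percentage points without the 5 most covered members to -1.10 with regions of fold enrichment of at least 2. The difference in covered share between conditions was -0.0591 as a ratio to the share of all other genes (without overlap between conditions), 0 as the median over members, and -0.360 to 1.45 percentage points on leaving out 1 sample each (negative without replicate 2 of pre-adipocytes). The difference in fold enrichment was -0.0207 at an FDR of up to 1e-05, -0.0426 with fold enrichment of at least 2, and -0.174 to 0.228 on leaving out 1 sample each. With fold enrichment of at least 2, 7 members had a region in both pre-adipocyte replicates. Members with regions in mature adipocytes alone numbered 0 with no flank and with a flank of 5 kb, and 1 to 4 on leaving out 1 sample each, where the single remaining replicate stood for its condition. It was 4 without replicate 1 and 4 without replicate 2 of mature adipocytes. Leaving out samples for the counts of members, dividing by all other genes, dropping the 5 most covered members, weighting by chromosome and the wider name rule were added after the data were seen.

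Members past the threshold in edgeR numbered 0 in all settings. Over all genes the number was 1 with no flank, 24 with no length offset, 11 with merged regions as the unit, and 0 to 17 on leaving out 1 sample each (17 without replicate 1 of pre-adipocytes, where the lone sample is assumed to vary like the others). With the replicate number as a block, 7 genes and 0 members passed. Deviations of same-numbered samples in reads per called kilobase correlated at -0.0083. Regions were called separately in each sample, so this value cannot decide whether same-numbered samples were paired. The cause of these changes was not tested. Replicate 2 of pre-adipocytes had the smallest library relative to the control (0.549) and the lowest covered share over all genes, but it had more regions than replicate 1 (38546 against 36468) and the most members with a region (18), and what depth limits was not tested.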

Other observations

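The name rule leaves out 5 genes of these families on the X chromosome. Gabra3, an alpha subunit of the GABA-A receptor, had 1, 0, 1 and 3 regions in replicates 1 and 2 of pre-adipocytes and of mature adipocytes, covering 2.70%, 0, 0.491% and 2.13% of its window, and Gabrq had 1 region in replicate 2 of mature adipocytes (6.95%). Gria3, Gabre and Nlgn3 had none.

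In the second list, both genes of GABA synthesis had regions in all 4 samples, in contrast to the GABA-A receptor cluster on chromosome 5. Gad1 had 29.9%, 6.69%, 27.0% and 29.2% of its window covered, and Gad2 29.3%, 16.2%, 27.1% and 21.0%, in the same order of samples. Slc32a1, the vesicular GABA transporter, had 0 and 0 in pre-adipocytes and 17.6% and 28.8% in mature adipocytes. These genes were picked after their values were seen, and no test was made of them.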
